A study of Mus musculus with 90 samples.

Results

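Brown adipose tissue (BAT) was compared with white adipose tissue (WAT) in 11 of the 90 RNA-seq libraries of a survey of female mice in estrus and diestrus. All libraries labelled as either fat were taken, which are 3 per tissue and phase, and BAT estrus replicate 3 was then left out because it held few reads. The comparison thus rests on 2 BAT libraries from estrus, 3 BAT libraries from diestrus and 3 WAT libraries from each phase. The mice were untreated females of the strain C57BL/6 by the labels and C57BL/6J by the methods, with a labelled age of 10 weeks, and their phase had been read from stained vaginal secretions. The methods give a younger age and describe the replicates of a phase as separate mice. The survey covers 15 tissues. Its methods describe them as taken from the same mice, so that BAT and WAT may share animals, but the labels do not say which libraries do. The fat depots are not given in the sources used here.

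Brown fat burns fuel to make heat. Its adipocytes hold many mitochondria and small lipid droplets, and uncoupling protein 1 (Ucp1) lets protons back across the inner mitochondrial membrane without making ATP, so that the energy of fatty acid and glucose oxidation leaves as heat. Noradrenaline from sympathetic nerves switches this on through beta-adrenergic receptors. White fat stores triglyceride in single large droplets, releases fatty acids on demand and secretes hormones such as leptin (Lep) and adiponectin (Adipoq).

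Expression is given as FPKM, the fragments of a gene divided by transcript length and by library size, a level per length that can be compared between genes. Differences are log2 fold changes on the log2(FPKM + 1) scale, BAT minus WAT, which understates the change of low genes. They come from limma with phase as a covariate, fitted to the 11830 genes with a mean of 1 FPKM or more over the 11 libraries. A gene was called where this difference was 1 or more in size with a Benjamini-Hochberg adjusted p of at most 0.05. A gene averaging below 1 FPKM in 1 tissue was tested only if the other tissue was higher. The call of such a gene is no evidence of its own. The read number was approximated from the values of short genes, at 8.40 to 10.9 Mreads (megareads) in the BAT libraries used, 12.9 to 16.1 Mreads in WAT and 0.0734 Mreads in BAT estrus replicate 3. By this approximation more reads stood behind the WAT values throughout, so that depth and tissue cannot be told apart. The paper gives a higher read number, common to all samples, and the reads sequenced in each library were not examined. WAT estrus replicate 1 also stood apart, with 53 genes at 5 FPKM or more and at 5 times or more every other fat library, against 0 to 19 such genes in each of the others.

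In all, 850 genes (7.19% of those tested) were called higher in BAT and 1440 (12.2%) higher in WAT. The median log2 fold change of all genes was -0.22, and after the libraries were scaled to the same median it was 0.02, with 1226 genes (10.4%) called higher in BAT and 961 (8.12%) higher in WAT. Which tissue had more called genes therefore depended on the scale. The counts given for lists are to be read against these shares of all genes. Pearson's r across the tested genes was 0.961 to 0.989 between BAT libraries, 0.930 to 0.990 between WAT libraries and 0.789 to 0.912 between the tissues.

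**Figure D1:**
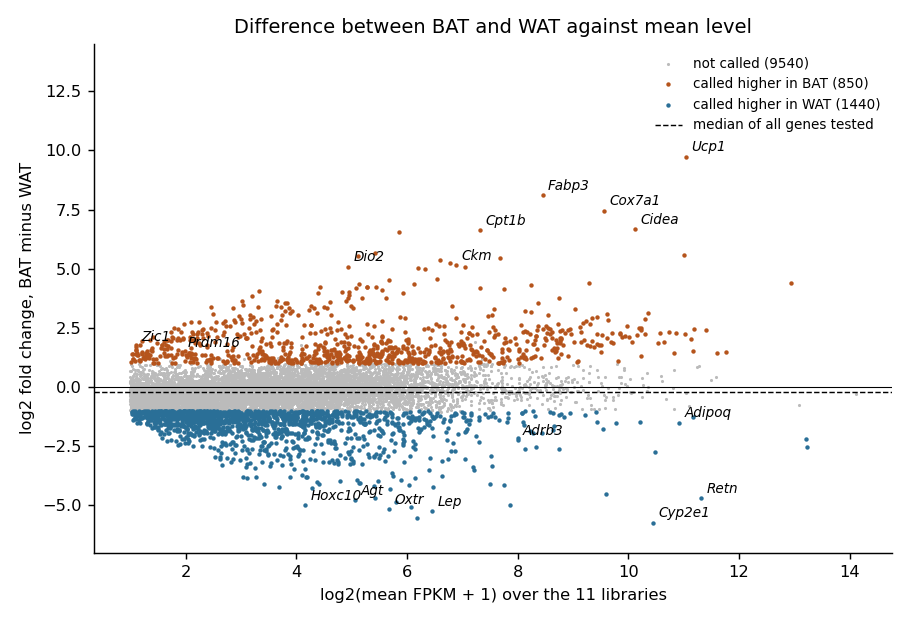
Log2 fold change between BAT and WAT (positive where BAT is higher) against the mean level over the 11 libraries, with 1 point per gene tested. The 850 genes called higher in BAT and 1440 called higher in WAT lie on either side of the dashed line, the median of all genes at -0.22, and Ucp1 has the highest fold change at 9.74.

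The labels of both fats were borne out by their defining genes. Adipoq, which adipocytes of either kind secrete, was abundant in all libraries, at 804 to 1063 FPKM in BAT and 2299 to 3382 FPKM in WAT. Ucp1 itself had 5574 and 4868 FPKM in estrus and 4747, 4314 and 3499.6 FPKM in diestrus in BAT, and 0.66 to 32.8 FPKM with a median of 4.005 in WAT. All 5 BAT libraries thus lay far above every WAT library, and no value of 1 group fell within the other (log2 fold change 9.74, SE 0.63, adjusted p = 2.31e-07, where SE is the standard error). BAT estrus replicate 3, which entered no test, had 3491.8 FPKM.

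The brown fat programme was higher in BAT almost throughout. Of 28 thermogenic genes listed, 25 were tested, 22 were called higher in BAT and 2 higher in WAT, with a median log2 fold change of 3.07. These counts were the same on the scale of equal medians. Acot11, Otop1 and Zic1, on this list, passed the filter on low values only through BAT. Cidea, a lipid droplet protein long used as a brown fat marker, had 1883 and 2287 FPKM in estrus and 2797, 2496 and 2521 FPKM in diestrus in BAT and 2.97 to 62.7 FPKM with a median of 28.8 in WAT (log2 fold change 6.68, SE 0.61, adjusted p = 3.00e-06). Dio2, the deiodinase that activates thyroid hormone inside the cell, had 64.4 and 65.6 FPKM in estrus and 80.4, 33.3 and 74.3 FPKM in diestrus in BAT and 0.06 to 4.45 FPKM with a median of 0.54 in WAT (log2 fold change 5.09, SE 0.39, adjusted p = 8.03e-07). Elovl3, which elongates saturated fatty acids, had 23.2 and 74.3 FPKM in estrus and 59.9, 57.3 and 95.5 FPKM in diestrus in BAT and 0.42 to 8.95 FPKM with a median of 1.81 in WAT (log2 fold change 4.01, SE 0.47, adjusted p = 2.33e-05). The 3 genes were separated without overlap, and in each the WAT libraries also spread widely around their median.

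**Figure D2:**
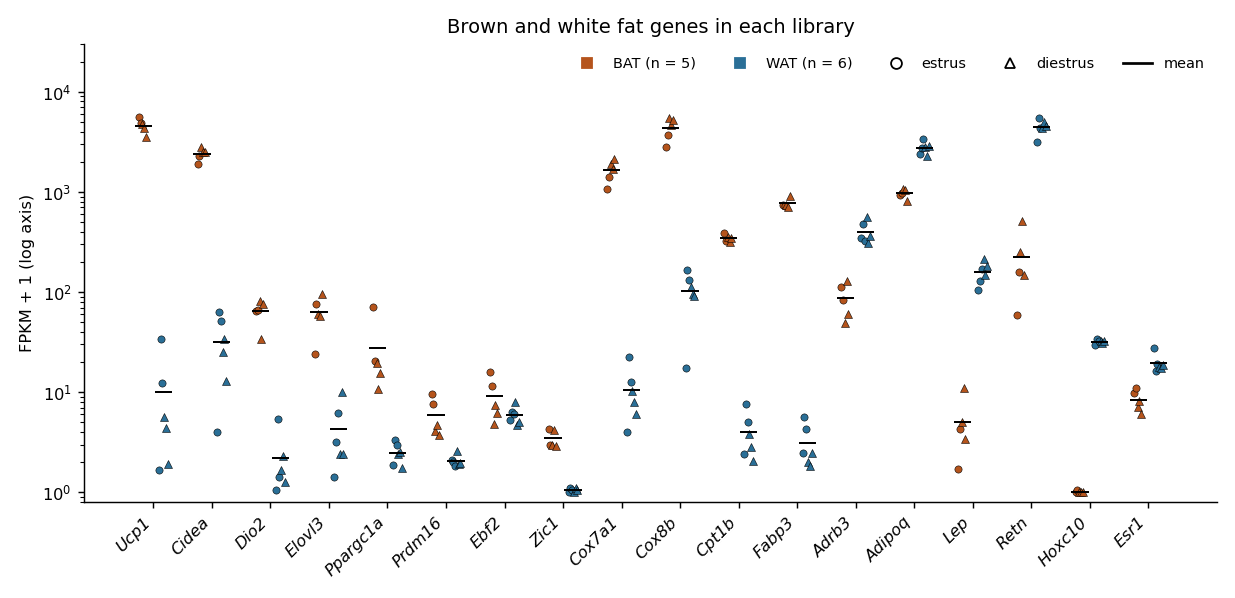
FPKM + 1 on a log axis of 18 genes of brown and white fat, with circles for estrus, triangles for diestrus, BAT in orange (n = 5), WAT in blue (n = 6) and bars at the means. BAT lies above WAT from Ucp1 to Fabp3 except for Ebf2, whose groups overlap, and WAT lies above BAT from Adrb3 to Esr1.

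Transcriptional regulators of the programme were on the same list. Ppargc1a, the coactivator that drives mitochondrial biogenesis, had 70.7 and 19.5 FPKM in estrus and 18.4, 9.66 and 14.5 FPKM in diestrus in BAT and 0.76 to 2.34 FPKM with a median of 1.48 in WAT (log2 fold change 3.23, SE 0.34, adjusted p = 9.38e-06). Its value in BAT estrus replicate 1 stood far above the other BAT libraries. Prdm16, a determinant of brown adipocyte identity, had 8.66 and 6.60 FPKM in estrus and 3.07, 3.73 and 2.78 FPKM in diestrus in BAT and 0.83 to 1.61 FPKM with a median of 0.99 in WAT (log2 fold change 1.47, SE 0.21, adjusted p = 8.70e-05). The related coactivator Ppargc1b was even across the BAT libraries, at 22.3 to 25.2 FPKM in BAT and 1.71 to 3.44 FPKM in WAT (log2 fold change 2.84). Among nuclear receptors, Ppara, a sensor of fatty acids, reached a log2 fold change of 3.59, Esrra of 1.98 and Esrrg of 2.00, all called higher in BAT.

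Ebf2, which marks brown adipocyte precursors, was not called. It had 14.9 and 10.5 FPKM in estrus and 3.82, 6.47 and 5.15 FPKM in diestrus in BAT and 3.72 to 7.01 FPKM with a median of 4.73 in WAT, so the groups overlapped (log2 fold change 0.57, SE 0.23, adjusted p = 0.0493). Both estrus libraries of BAT lay above all WAT libraries and the diestrus libraries did not, and in estrus alone the gene was called at a log2 fold change of 1.19. Lhx8, a transcription factor of brown fat, fell below the limit for testing, at 1.29 and 0.98 FPKM in estrus and 2.11, 3.22 and 1.68 FPKM in diestrus in BAT and 0 to 0.10 FPKM in WAT. Bmp8b, a secreted factor of activated brown fat, was likewise too low to test, with 1.27 to 2.89 FPKM in BAT and 0 to 0.05 FPKM in WAT. In a two-sided exact permutation test of the 11 libraries, the difference of Lhx8 had p = 0.00433, the smallest such a test can give, and that of Ebf2 had p = 0.152.

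Of the other uncoupling protein genes, Ucp3, the form of muscle, was called higher in BAT at 52.7 to 115 FPKM in BAT and 11.5 to 23.4 FPKM in WAT (log2 fold change 2.00, SE 0.22, adjusted p = 1.22e-05). Ucp2, found in many cell types, had 47.0 to 75.3 FPKM in BAT and 85.4 to 172 FPKM in WAT and was not called (log2 fold change -0.90, SE 0.22, adjusted p = 0.00332), and per length the FPKM of Ucp1 exceeded that of both in every BAT library.

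The named thermogenic genes with the opposite direction were Adrb3 and Epsti1. Adrb3, the beta-3 adrenergic receptor of adipocytes, had 111 and 82.5 FPKM in estrus and 48.5, 128 and 59.3 FPKM in diestrus in BAT against 309.5 to 565 FPKM with a median of 355 in WAT (log2 fold change -2.24, SE 0.26, adjusted p = 1.92e-05). Epsti1, on the list as a brown fat marker, was low in both tissues, at 0.92 to 2.22 FPKM in BAT and 4.57 to 8.80 FPKM in WAT (log2 fold change -1.46).

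Several of the genes with the highest fold changes handle fatty acids. Fabp3, the fatty acid carrier of heart and muscle, had 742 and 723 FPKM in estrus and 738, 709.6 and 918 FPKM in diestrus in BAT and 0.84 to 4.68 FPKM with a median of 1.48 in WAT (log2 fold change 8.10, SE 0.24, adjusted p = 8.85e-10). Slc27a2, which takes up and activates very long chain fatty acids, had 174 and 126 FPKM in estrus and 126, 98.5 and 96.0 FPKM in diestrus in BAT and 0 to 1.18 FPKM with a median of 0.29 in WAT (log2 fold change 6.55, SE 0.18, adjusted p = 7.17e-10). Acot11, a thioesterase induced in brown fat by cold, had 96.0 and 111 FPKM in estrus and 82.4, 88.9 and 76.9 FPKM in diestrus in BAT and 0.34 to 1.60 FPKM with a median of 0.75 in WAT (log2 fold change 5.67, SE 0.12, adjusted p = 1.09e-10). All 3 were near or below 5 FPKM in every WAT library. Otop1, a proton channel, followed with 89.9 and 81.9 FPKM in estrus and 60.2, 73.2 and 61.6 FPKM in diestrus in BAT and 0.04 to 1.85 FPKM with a median of 0.56 in WAT (log2 fold change 5.54, SE 0.23, adjusted p = 1.17e-08). Gm20594, a predicted gene, was the most abundant of these in BAT, at 7970.0 to 20804 FPKM in BAT and 309.8 to 1259 FPKM in WAT (log2 fold change 4.41), but near-identical copies could share its reads and its level is uncertain. Slc27a2, Acot11 and Otop1 averaged 0.39, 0.89 and 0.75 FPKM in WAT and passed the filter on low values only through BAT. Their calls are therefore no evidence of their own.

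The sequences just before the starts of 4 of the genes higher in BAT and of 2 adipokine genes higher in WAT are shown because these genes had differences among the highest of their lists. Each is the 250 bases before the RefSeq start (GRCm38.p6), read in the direction of the gene, at chr8:83290098-83290347, plus strand for Ucp1, chr7:30183921-30184170, plus strand for Cox7a1, chr7:140900447-140900696, minus strand for Cox8b, chr4:130308488-130308737, plus strand for Fabp3, chr6:29059971-29060220, plus strand for Lep and chr8:3655520-3655769, plus strand for Retn. Capitals mark a match, on either strand, to any of AGGTCA (a nuclear receptor half-site), TCAAGGTCA (the ERR site, which contains it), TGACGTCA (CRE), CAGCTG (E-box), and to the NRF1 and MEF2 motifs.
Ucp1: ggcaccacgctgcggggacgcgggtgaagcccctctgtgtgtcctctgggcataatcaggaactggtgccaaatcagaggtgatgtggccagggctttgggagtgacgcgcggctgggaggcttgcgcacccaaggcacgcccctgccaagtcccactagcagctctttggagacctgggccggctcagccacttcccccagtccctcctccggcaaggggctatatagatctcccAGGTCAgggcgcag
Cox7a1: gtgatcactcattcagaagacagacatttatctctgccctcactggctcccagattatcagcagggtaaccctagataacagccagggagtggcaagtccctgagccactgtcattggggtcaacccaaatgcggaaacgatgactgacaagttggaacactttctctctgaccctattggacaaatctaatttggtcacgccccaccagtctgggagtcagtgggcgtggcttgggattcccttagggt
Cox8b: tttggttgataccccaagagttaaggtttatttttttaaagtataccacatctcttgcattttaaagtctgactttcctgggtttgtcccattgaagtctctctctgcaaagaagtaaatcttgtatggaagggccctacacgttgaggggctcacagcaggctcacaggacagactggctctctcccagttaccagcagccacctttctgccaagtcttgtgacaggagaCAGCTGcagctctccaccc
Fabp3: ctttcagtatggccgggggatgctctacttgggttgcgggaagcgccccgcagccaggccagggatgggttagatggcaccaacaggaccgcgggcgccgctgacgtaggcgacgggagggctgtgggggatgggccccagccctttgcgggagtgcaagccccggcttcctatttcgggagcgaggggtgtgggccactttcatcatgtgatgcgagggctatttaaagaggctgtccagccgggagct
Lep: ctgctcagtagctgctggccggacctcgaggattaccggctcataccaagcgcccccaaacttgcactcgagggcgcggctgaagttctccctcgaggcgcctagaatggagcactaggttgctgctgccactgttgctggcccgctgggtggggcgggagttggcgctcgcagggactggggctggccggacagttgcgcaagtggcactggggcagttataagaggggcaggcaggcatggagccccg
Retn: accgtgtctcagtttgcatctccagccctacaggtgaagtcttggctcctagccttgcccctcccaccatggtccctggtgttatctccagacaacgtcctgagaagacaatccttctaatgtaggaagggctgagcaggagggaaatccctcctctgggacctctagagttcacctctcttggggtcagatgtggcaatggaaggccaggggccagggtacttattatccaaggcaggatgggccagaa

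The Ucp1 window held 1 match, AGGTCA, beginning 14 bases before the start, and the Cox8b window held 1, CAGCTG, beginning 19 bases before it. The other 4 windows held none of these letters. Among windows of the same length, AGGTCA was in 10.5% of 9425 genes tested that had a window and CAGCTG in 11.6%. In 686 such genes called higher in BAT the shares were 13.6% and 14.9%, and in 1090 called higher in WAT 10.1% and 15.9%. CAGCTG was thus no more frequent toward BAT than toward WAT. The windows of 68 oxidative phosphorylation genes held the NRF1 motif in 17.6%, against 8.60% of the genes tested. Genes called higher in BAT held it in 7.43%. These shares are descriptions without a test.

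Genes of mitochondrial oxidation were higher in BAT at nearly every step. Of 31 fatty acid oxidation genes, 19 were called higher in BAT and 2 higher in WAT, with a median log2 fold change of 1.76. Cpt1b, the muscle form of the enzyme that admits fatty acids to mitochondria, had 385 and 319 FPKM in estrus and 356, 316 and 343 FPKM in diestrus in BAT and 1.05 to 6.67 FPKM with a median of 2.31 in WAT (log2 fold change 6.63, SE 0.27, adjusted p = 1.12e-08). The non-coding read-through gene Gm44502 overlaps Cpt1b and could share reads with it. Cpt1a, the liver form, went the other way at 3.66 to 4.17 FPKM in BAT and 5.79 to 22.1 FPKM in WAT (log2 fold change -1.15, SE 0.24, adjusted p = 0.0014), but it was not called without WAT estrus replicate 1 (log2 fold change -0.96) or on the scale of equal medians (-0.90). Of the summed FPKM of both forms, Cpt1b made up 98.8% to 99.1% in BAT and 5.97% to 45.2% in WAT.

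Inside the mitochondrion, Acaa2, the thiolase that ends each round of beta-oxidation, had 1278 and 1276 FPKM in estrus and 1460.2, 1307 and 1224 FPKM in diestrus in BAT and 52.9 to 70.9 FPKM with a median of 61.7 in WAT (log2 fold change 4.40, SE 0.10, adjusted p = 1.26e-10). The chain shortening enzymes Acadvl, Acadl, Acadm and Hadhb were all called, with log2 fold changes of 3.31, 2.92, 2.25 and 3.07. The supply of fatty acids to the cell did not share this direction. Slc27a1, a fatty acid transporter, was called higher in WAT at 67.3 to 125 FPKM in BAT and 324 to 662 FPKM in WAT (log2 fold change -2.54, SE 0.18, adjusted p = 4.61e-07), and Lpl, the lipase that frees fatty acids from lipoproteins, had 1084 to 2122 FPKM in BAT and 2133 to 3095 FPKM in WAT (log2 fold change -0.80, not called).

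Of the 80 tested subunits of oxidative phosphorylation, 75 were called higher in BAT and 1 higher in WAT, the BAT and WAT values did not overlap for 75 with BAT above (14.3% of all genes), and the median log2 fold change was 2.11. The complexes were alike in this: 36 of 37 genes of complex I, 4 of 4 of complex II, 9 of 9 of complex III and 14 of 14 tested genes of complex IV were called higher in BAT, with medians of 2.07, 1.91, 2.25 and 2.41. For ATP synthase the count was 12 of 16, with a median of 1.92. Their summed level was 72057 to 102762 FPKM in BAT and 14610.3 to 23633 FPKM in WAT. The TCA cycle that feeds them was higher too, with 25 of 28 genes called and a median of 1.81. Suclg1, a subunit of succinate-CoA ligase, had 756 and 817 FPKM in estrus and 949, 907 and 911 FPKM in diestrus in BAT and 47.9 to 69.1 FPKM with a median of 64.7 in WAT (log2 fold change 3.76, SE 0.10, adjusted p = 6.84e-10), and Pdk4, a kinase that restrains entry of pyruvate, had 591 and 448 FPKM in estrus and 198, 214 and 203 FPKM in diestrus in BAT and 11.1 to 29.0 FPKM with a median of 14.8 in WAT (log2 fold change 4.20, SE 0.29, adjusted p = 4.16e-07). Pcx, which makes oxaloacetate from pyruvate, was the TCA list's gene called higher in WAT (log2 fold change -1.79, SE 0.16, adjusted p = 2.84e-06).

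**Figure D3:**
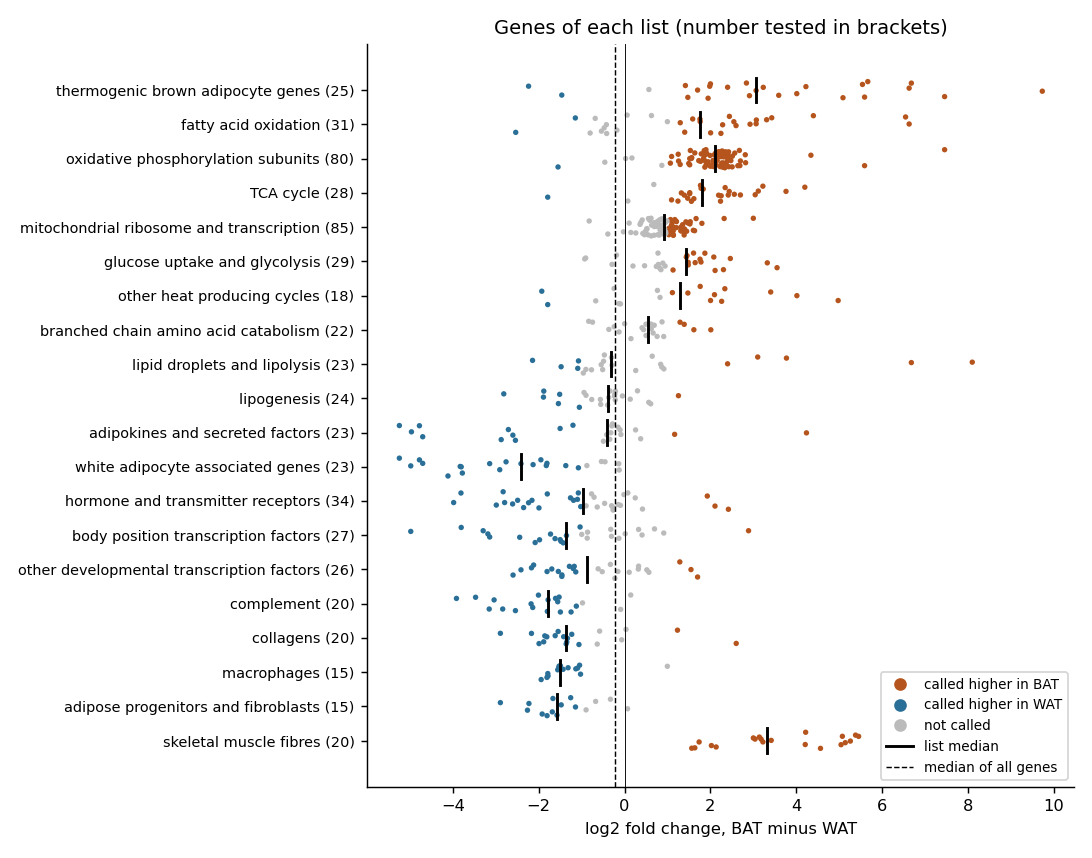
Log2 fold change, BAT minus WAT, of every tested gene of 20 lists, with the list median as a black bar, the median of all genes (-0.22) dashed, and colour for genes called higher in BAT (orange), higher in WAT (blue) or not called (grey). The points of oxidative phosphorylation (median 2.11) and the TCA cycle (1.81) lie together to the right, and those of white adipocyte associated genes (-2.41), complement (-1.79) and collagens (-1.35) mostly to the left.

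The subunits of complex IV that exist as isoforms had the widest differences. Cox7a1, the heart and muscle form, had 1072 and 1421 FPKM in estrus and 1921, 1699 and 2119.7 FPKM in diestrus in BAT and 2.97 to 21.4 FPKM with a median of 8.13 in WAT (log2 fold change 7.46, SE 0.38, adjusted p = 4.71e-08), and made up 70.2% to 75.2% of the FPKM of Cox7a1 and Cox7a2 in BAT against 2.94% to 10.5% in WAT. Cox8b had 2812 and 3669 FPKM in estrus and 5501, 4668 and 5228 FPKM in diestrus in BAT and 16.3 to 166 FPKM with a median of 102 in WAT (log2 fold change 5.59, SE 0.47, adjusted p = 1.72e-06), or 49.6% to 58.0% of the FPKM of Cox8b and Cox8a in BAT against 1.90% to 10.4% in WAT. The ubiquitous partners were also higher in BAT, with log2 fold changes of 2.08 for Cox7a2 and 1.52 for Cox8a. Both forms of each pair were therefore higher in BAT, the muscle form by more. A further muscle form, Cox6a2, made up at most 4.71% of the FPKM of Cox6a2 and Cox6a1 in any BAT library.

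Subunit c of ATP synthase, the ring through which protons turn the enzyme, is encoded by 3 genes, and none of them was called higher in BAT on the scale as deposited. Atp5g1 had 34.5 and 30.7 FPKM in estrus and 27.4, 26.4 and 104 FPKM in diestrus in BAT and 101 to 126 FPKM with a median of 112 in WAT (log2 fold change -1.55, SE 0.30, adjusted p = 8.46e-04). Atp5g2 had 422 to 568.5 FPKM in BAT and 254 to 303 FPKM in WAT (log2 fold change 0.87), and Atp5g3 had 200.4 to 349 FPKM in BAT and 273 to 459 FPKM in WAT (log2 fold change -0.46). The subunit c genes thus lay apart from the genes of the catalytic core, Atp5b (log2 fold change 2.03, SE 0.14, adjusted p = 3.49e-07) and Atp5a1 (log2 fold change 1.86, SE 0.12, adjusted p = 2.58e-07). The highest BAT value of Atp5g1 was in BAT diestrus replicate 3, the library with the most muscle RNA (described further on), and the gene had 641 to 1050.2 FPKM in skeletal muscle. Without that library its log2 fold change was -1.89. On the scale of equal medians Atp5g2 was at 1.15 and was called higher in BAT, and Atp5g3 was at -0.18.

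The machinery that makes the mitochondrially encoded subunits was higher by less. Of 85 genes of the mitochondrial ribosome and of mitochondrial transcription, 37 were called higher in BAT and 0 higher in WAT, with a median of 0.93, and 60 were called on the scale of equal medians. Mrps36, listed by its symbol and not by a role in the ribosome, had the largest difference (log2 fold change 3.00, SE 0.10, adjusted p = 3.14e-09). Tfam, the factor that packages and transcribes mitochondrial DNA, had 14.2 to 18.9 FPKM in BAT and 9.54 to 12.8 FPKM in WAT (log2 fold change 0.52, not called).

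Genes of glucose use were higher in BAT as well. Of 29 genes of glucose uptake and glycolysis, 16 were called higher in BAT and 0 higher in WAT, with a median of 1.44, and 23 were called on the scale of equal medians. Ldhb, the lactate dehydrogenase subunit of oxidative tissues, had 644 and 622 FPKM in estrus and 705, 651 and 677 FPKM in diestrus in BAT and 42.9 to 70.8 FPKM with a median of 55.8 in WAT (log2 fold change 3.55, SE 0.11, adjusted p = 1.84e-09). It made up 33.7% to 35.5% of the FPKM of Ldhb and Ldha in BAT and 5.41% to 9.85% in WAT. Eno1 (2.31), Pgk1 (2.08), Pfkl (1.87) and Hk2 (1.46), enzymes of glycolysis, had log2 fold changes that were called, and Slc2a4, the insulin-responsive glucose transporter, had 284.5 to 345 FPKM in BAT and 123 to 235 FPKM in WAT (log2 fold change 0.85, not called). Of 22 genes for the breakdown of branched chain amino acids, 4 were called higher in BAT and 0 higher in WAT, led by Mcee (log2 fold change 2.01, SE 0.16, adjusted p = 9.94e-07).

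Skeletal muscle genes were part of this contrast. The 20 muscle fibre markers tested were all called higher in BAT, with a median of 3.32, but some passed the filter on low values only through BAT, and their level differed widely among the BAT libraries. The summed level of the markers was 2295 and 2555 FPKM in BAT estrus replicates 1 and 2 and 653, 206 and 9721 FPKM in BAT diestrus replicates 1 to 3, against 78.2 to 149 FPKM in WAT. At the median marker this was 1.57%, 1.82%, 0.33%, 0.04% and 5.86% of the level in the skeletal muscle libraries and at most 0.05% in WAT. BAT diestrus replicate 2 was thus within the range of the WAT libraries by this measure. Ckm, the muscle creatine kinase, had 209 and 205 FPKM in estrus and 44.2, 3.35 and 812 FPKM in diestrus in BAT and 0.09 to 5.57 FPKM with a median of 2.31 in WAT (log2 fold change 5.14, SE 1.12, adjusted p = 0.00194).

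**Figure D4:**
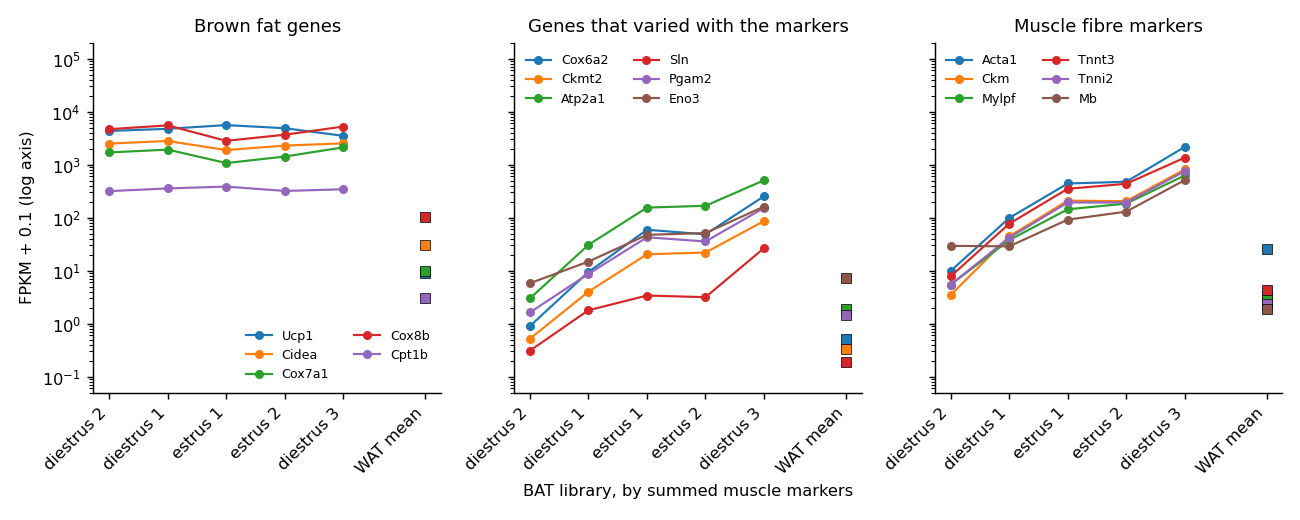
FPKM + 0.1 on a log axis in the 5 BAT libraries, ordered by the summed muscle markers, with squares for the mean of the 6 WAT libraries. Ucp1, Cidea, Cox7a1, Cox8b and Cpt1b vary little across the libraries, whereas Cox6a2, Ckmt2, Atp2a1, Sln, Pgam2 and Eno3, chosen after their values were seen, rise with the markers and lie at 0.21 to 5.69 FPKM in BAT diestrus replicate 2.

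Several genes that could be read as brown fat genes followed these markers across the BAT libraries. Cox6a2 had 59.0 and 48.3 FPKM in estrus and 9.35, 0.80 and 253 FPKM in diestrus in BAT and 0 to 1.04 FPKM with a median of 0.30 in WAT (log2 fold change 4.34, SE 0.98, adjusted p = 0.00244). Atp2a1, the calcium pump of fast muscle, had 155 and 167 FPKM in estrus and 30.6, 2.89 and 507 FPKM in diestrus in BAT and 0.09 to 3.89 FPKM with a median of 1.73 in WAT (log2 fold change 4.98, SE 1.06, adjusted p = 0.00166). Ckmt2, the creatine kinase of muscle mitochondria, had 20.3 and 21.8 FPKM in estrus and 3.91, 0.42 and 86.2 FPKM in diestrus in BAT and 0 to 0.52 FPKM with a median of 0.20 in WAT (log2 fold change 3.41, SE 0.82, adjusted p = 0.00358). Each was highest in BAT diestrus replicate 3 and near the WAT level in BAT diestrus replicate 2. Cox6a2 and Ckmt2 passed the filter on low values only through BAT. Their calls are therefore no evidence of their own.

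Genes of the brown adipocyte were also higher with BAT diestrus replicate 2 as the single BAT library. This alternative was chosen after the data were seen. The spread of BAT cannot be estimated from 1 library, so only the sizes of differences are given. In this limma fit, Ucp1 had a log2 fold change of 10.22, Fabp3 of 8.41, Cox7a1 of 7.75, Cpt1b of 6.82 and Cidea of 6.80. Median log2 fold changes were 3.11 for 23 thermogenic genes, 2.198 for 79 oxidative phosphorylation genes and 1.73 for 31 fatty acid oxidation genes. They were 0.82 for 29 glycolysis genes and 0.69 for 10 muscle markers, against -0.201 for all genes tested. Of the muscle markers, Mb, the gene of myoglobin, was at 3.33 and Acta1 at -1.304. Mb had 91.7 and 129.6 FPKM in estrus and 28.6, 29.2 and 510.2 FPKM in diestrus in BAT and 1.11 to 2.42 FPKM with a median of 1.82 in WAT, so that its level in BAT diestrus replicate 2 was close to that of BAT diestrus replicate 1 although their marker sums were 206 and 653 FPKM. The glycolysis list holds genes that muscle also expresses. With BAT diestrus replicate 2 as the BAT library, Pgam2, Eno3 and Pygm were at -0.05, -0.28 and -0.01, and Pfkm at 1.15. The part of muscle RNA in these genes was not tested further.

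Heat producing cycles other than Ucp1 gave a mixed picture. Of 18 such genes tested, 10 were called higher in BAT and 2 higher in WAT, with a median of 1.30. With BAT diestrus replicate 2 as the BAT library the median was 0.55. In the creatine cycle, Gamt, the last enzyme of creatine synthesis, was higher in WAT at 4.22 to 6.11 FPKM in BAT and 16.5 to 29.2 FPKM in WAT (log2 fold change -1.93, SE 0.16, adjusted p = 1.51e-06), and Ckb, the cytosolic creatine kinase, had 26.0 to 47.6 FPKM in BAT and 30.2 to 95.3 FPKM in WAT (log2 fold change -0.13, not called). Alpl, the phosphatase tied to this cycle, was higher in BAT at 9.29 to 18.9 FPKM in BAT and 3.49 to 5.70 FPKM in WAT (log2 fold change 1.48). In glycerolipid cycling, Gk, glycerol kinase, had 83.0 and 56.2 FPKM in estrus and 51.3, 48.4 and 47.1 FPKM in diestrus in BAT and 1.94 to 4.26 FPKM with a median of 2.42 in WAT (log2 fold change 4.02, SE 0.17, adjusted p = 1.27e-08). The glycerol phosphate shuttle enzymes Gpd1 (log2 fold change 2.26, SE 0.21, adjusted p = 3.24e-06) and Gpd2 (log2 fold change 2.34, SE 0.31, adjusted p = 5.83e-05) were called as well.

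Genes of lipid synthesis differed less than those of oxidation. Of 24 lipogenic genes, 1 was called higher in BAT and 6 higher in WAT, with a median of -0.38. Over all genes, 7.19% were called higher in BAT and 12.2% higher in WAT, with a median of -0.22. Fasn, fatty acid synthase, had 1812 and 1980.2 FPKM in estrus and 1593, 1746 and 1553 FPKM in diestrus in BAT and 1227 to 2445 FPKM with a median of 1882 in WAT (log2 fold change -0.05, adjusted p = 0.812). Srebf1, the transcription factor that activates these genes, was higher in WAT at 42.3 to 75.7 FPKM in BAT and 126 to 240.5 FPKM in WAT (log2 fold change -1.89, SE 0.17, adjusted p = 2.33e-06), as was the desaturase Fads1 at 6.45 to 11.2 FPKM in BAT and 58.1 to 69.3 FPKM in WAT (log2 fold change -2.81, SE 0.11, adjusted p = 8.40e-09). Acacb, whose product malonyl-CoA inhibits Cpt1, was the member called higher in BAT (log2 fold change 1.26, SE 0.29, adjusted p = 0.00301).

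Lipid droplet proteins split by type. Of 23 genes, 5 were called higher in BAT and 4 higher in WAT, against 7.19% and 12.2% of all genes. Plin5, which ties droplets to mitochondria, had 90.1 and 92.1 FPKM in estrus and 116, 92.6 and 101 FPKM in diestrus in BAT and 3.09 to 9.13 FPKM with a median of 6.64 in WAT (log2 fold change 3.77, SE 0.16, adjusted p = 1.41e-08), and Cideb had 5.64 to 16.0 FPKM in BAT and 0.07 to 0.37 FPKM in WAT (log2 fold change 3.10, SE 0.19, adjusted p = 1.57e-07). Plin1, the coat of large droplets, had 426 and 347 FPKM in estrus and 248, 310.0 and 196 FPKM in diestrus in BAT and 498 to 838 FPKM with a median of 623 in WAT (log2 fold change -1.09, SE 0.20, adjusted p = 5.42e-04), and Plin4 and Cidec were called higher in WAT with log2 fold changes of -2.14 and -1.48. On the scale of equal medians Plin1 was at -0.81, below the limit for a call. Cideb passed the filter on low values only through BAT, so that its call is no evidence of its own. Fitm1, called higher in BAT, followed the muscle markers at 7.32 and 5.13 FPKM in estrus and 1.08, 0.47 and 28.7 FPKM in diestrus. Fabp4, the adipocyte fatty acid binding protein and the most abundant of the list, had 13394 to 18025 FPKM in BAT and 13392 to 22295 FPKM in WAT (log2 fold change -0.30, adjusted p = 0.207).

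Of 23 adipokines and secreted factors tested, 10 were called higher in WAT, 2 higher in BAT and 11 in neither direction, with a median of -0.42. Of 23 white adipocyte associated genes, 18 were called higher in WAT and 0 higher in BAT, with a median of -2.41. Over all genes, 12.2% were called higher in WAT and 7.19% higher in BAT. Hoxc9, Hoxc10 and Tcf21, on the second list, passed the filter on low values only through WAT. Their calls are therefore no evidence of their own. Lep, which reports fat stores to the brain, had 0.70 and 3.32 FPKM in estrus and 4.05, 9.91 and 2.38 FPKM in diestrus in BAT and 104 to 211 FPKM with a median of 157 in WAT (log2 fold change -5.25, SE 0.32, adjusted p = 1.55e-07). Retn, resistin, had 58.3 and 157 FPKM in estrus and 249.8, 509.6 and 148 FPKM in diestrus in BAT and 3123 to 5444 FPKM with a median of 4469 in WAT (log2 fold change -4.70, SE 0.38, adjusted p = 1.09e-06). For both, the highest BAT value came from BAT diestrus replicate 2, and it lay far below the lowest WAT value.

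Agt, angiotensinogen, had 0.33 and 1.21 FPKM in estrus and 0.93, 1.69 and 1.04 FPKM in diestrus in BAT and 24.6 to 82.3 FPKM with a median of 63.0 in WAT (log2 fold change -4.78, SE 0.30, adjusted p = 2.04e-07). Rbp4, the carrier of retinol, had 59.1 to 167 FPKM in BAT and 489 to 878 FPKM in WAT (log2 fold change -2.60), and Cfd, the complement factor adipsin, 1532 to 4008 FPKM in BAT and 10477 to 18725 FPKM in WAT (log2 fold change -2.54). Adipoq was higher in WAT by less (log2 fold change -1.50, SE 0.14, adjusted p = 3.33e-06). The factors called higher in BAT were S100b, a calcium binding protein that brown adipocytes secrete to nerves, with 41.2 and 53.2 FPKM in estrus and 39.8, 43.2 and 39.6 FPKM in diestrus in BAT and 0.79 to 3.33 FPKM with a median of 1.33 in WAT (log2 fold change 4.24, SE 0.16, adjusted p = 7.61e-09), and Nampt, which makes an NAD precursor, at 71.8 to 90.3 FPKM in BAT and 22.2 to 47.7 FPKM in WAT (log2 fold change 1.17, SE 0.17, adjusted p = 9.24e-05).

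Other genes with the largest differences toward WAT included detoxification and liver-type secretory genes. Cyp2e1, a cytochrome P450, had 8.72 and 41.6 FPKM in estrus and 117, 91.8 and 51.8 FPKM in diestrus in BAT and 1549.6 to 3922 FPKM with a median of 2257 in WAT (log2 fold change -5.73, SE 0.46, adjusted p = 1.17e-06). Serpina3n, a protease inhibitor, had 0.53 to 6.17 FPKM in BAT and 88.1 to 221 FPKM in WAT (log2 fold change -5.54, SE 0.37, adjusted p = 3.04e-07), and Trf, transferrin, 21.9 to 176 FPKM in BAT and 1113 to 1704 FPKM in WAT (log2 fold change -4.51, SE 0.38, adjusted p = 1.63e-06). Nnat, neuronatin, varied more, at 4.95 and 16.4 FPKM in estrus and 6.79, 29.6 and 4.47 FPKM in diestrus in BAT and 65.6 to 648 FPKM with a median of 441 in WAT (log2 fold change -4.97, SE 0.62, adjusted p = 3.40e-05). Complement genes shared the direction: 17 of 20 were called higher in WAT, against 12.2% of all genes, and 0 higher in BAT, with a median of -1.79. Among them were C4b (log2 fold change -3.92, SE 0.37, adjusted p = 4.14e-06) and C2 (log2 fold change -3.47, SE 0.25, adjusted p = 4.96e-07).

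Receptor genes were called in both directions. Of 34 hormone and transmitter receptor genes tested, 3 were called higher in BAT and 17 higher in WAT, which became 3 and 13 on the scale of equal medians. Over all genes, 7.19% were called higher in BAT and 12.2% higher in WAT, or 10.4% and 8.12% on equal medians. The 3 higher in BAT were Adra1a, the alpha-1A adrenergic receptor (25.9 and 19.5 FPKM in estrus and 15.0, 13.8 and 12.0 FPKM in diestrus in BAT and 0.83 to 4.20 FPKM with a median of 2.65 in WAT), Adrb1, the beta-1 receptor (16.3 and 14.2 FPKM in estrus and 7.37, 13.2 and 9.56 FPKM in diestrus in BAT and 1.17 to 3.73 FPKM with a median of 1.85 in WAT), and Ffar4, a receptor for long chain fatty acids (114 and 131 FPKM in estrus and 52.2, 66.2 and 53.1 FPKM in diestrus in BAT and 13.3 to 31.8 FPKM with a median of 19.1 in WAT). Their log2 fold changes were 2.42, 2.11 and 1.93. BAT thus had more Adrb1 and Adra1a and less Adrb3 than WAT, although Adrb3 remained the most abundant of the adrenergic receptors in BAT per length.

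Among the receptors called higher in WAT were several for pituitary hormones. Tshr, the thyrotropin receptor, had 0.36 to 4.12 FPKM in BAT and 38.6 to 57.7 FPKM in WAT (log2 fold change -3.98, SE 0.26, adjusted p = 2.89e-07). Sucnr1, which senses succinate, had 1.18 and 1.18 FPKM in estrus and 0.89, 2.21 and 0.87 FPKM in diestrus in BAT and 23.3 to 40.5 FPKM with a median of 29.8 in WAT (log2 fold change -3.81, SE 0.16, adjusted p = 1.32e-08). Mc2r, the corticotropin receptor, had 1.70 to 4.44 FPKM in BAT and 18.0 to 28.1 FPKM in WAT (log2 fold change -2.83, SE 0.19, adjusted p = 3.23e-07), and Ghr, the growth hormone receptor, 59.6 to 92.4 FPKM in BAT and 406 to 506 FPKM in WAT (log2 fold change -2.61, SE 0.11, adjusted p = 1.17e-08). Each of these was separated without overlap, and none had a BAT library above 93 FPKM.

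Esr1, the main estrogen receptor of fat, had 8.81 and 9.90 FPKM in estrus and 6.06, 7.22 and 5.09 FPKM in diestrus in BAT and 15.1 to 26.6 FPKM with a median of 17.3 in WAT (log2 fold change -1.19, SE 0.14, adjusted p = 2.63e-05). On the scale of equal medians Esr1 was at -0.93, below the limit for a call. Pgr, the progesterone receptor, was too low to test, with 0 to 0.14 FPKM in BAT and 0.18 to 1.70 FPKM in WAT. Oxtr, the oxytocin receptor, was among the genes with the largest differences, at 0.29 and 1.18 FPKM in estrus and 2.55, 2.47 and 0.79 FPKM in diestrus in BAT and 27.6 to 184 FPKM with a median of 77.3 in WAT (log2 fold change -5.16, SE 0.34, adjusted p = 3.02e-07).

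The Hox genes record position along the body axis, with higher paralog groups used further toward the tail, and they differed between the fats by group. Of 38 Hox genes 27 were tested, of which 1 was called higher in BAT and 15 higher in WAT. In groups 1 to 3, 1 of 5 tested genes was called higher in WAT, and in groups 4 and 5 1 of 7 was called in each direction. Hoxd3, the gene called in groups 1 to 3, averaged 0.40 FPKM in BAT and passed the filter on low values only through WAT. Its call is therefore no evidence of its own. In groups 6 to 8, 6 of 8 were called higher in WAT with a median of -1.45. In groups 9 to 13, 7 of 15 genes were tested, and all 7 passed the filter on low values only through WAT, so that their calls toward WAT are no evidence of their own. Of these, Hoxd10 passed through WAT estrus replicate 1 alone, with 14.3 FPKM there and 0.32 to 2.09 FPKM in the other WAT libraries. The summed level of groups 9 to 13 was 1.25 to 1.69 FPKM in BAT and 69.3 to 117 FPKM in WAT, whereas that of groups 4 and 5 was 53.5 to 71.9 FPKM in BAT and 38.1 to 53.5 FPKM in WAT.

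**Figure D5:**
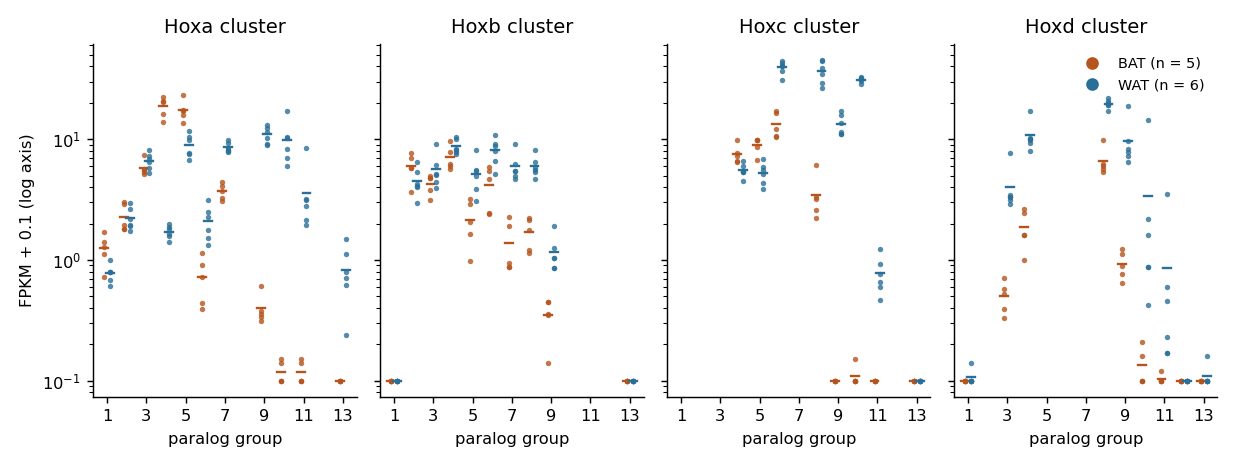
FPKM + 0.1 on a log axis of the Hox genes of the 4 clusters by paralog group, with BAT in orange (n = 5) and WAT in blue (n = 6), points for libraries and bars for means. BAT is at or above WAT in Hoxa4 and Hoxa5 and near 0 from group 9 on, where the WAT libraries reach 28.7 to 32.7 FPKM in Hoxc10.

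Hoxc10 had 0 and 0.05 FPKM in estrus and 0, 0 and 0 FPKM in diestrus in BAT and 28.7 to 32.7 FPKM with a median of 31.3 in WAT (log2 fold change -4.98, SE 0.07, adjusted p = 1.99e-12), and Hoxc9 was listed at 0 in all 5 BAT libraries and at 10.8 to 17.1 FPKM in WAT, and was called. Hoxc8 was intermediate in BAT, at 2.12 and 2.51 FPKM in estrus and 3.08, 5.96 and 3.20 FPKM in diestrus, against 26.2 to 45.1 FPKM with a median of 36.8 in WAT (log2 fold change -3.14, SE 0.20, adjusted p = 2.43e-07). The opposite pattern was that of Hoxa4, with 22.1 and 16.1 FPKM in estrus and 13.8, 20.1 and 20.7 FPKM in diestrus in BAT and 1.30 to 1.89 FPKM with a median of 1.61 in WAT (log2 fold change 2.89, SE 0.13, adjusted p = 1.41e-08). Its neighbour Hoxa5 had 13.6 to 22.9 FPKM in BAT and 6.68 to 11.6 FPKM in WAT (log2 fold change 0.91, not called).

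Other developmental transcription factors also separated the tissues. Of 26 tested, 3 were called higher in BAT and 13 higher in WAT, against 7.19% and 12.2% of all genes. Zic1, a marker of the interscapular brown fat lineage, had 3.27 and 1.98 FPKM in estrus and 2.00, 3.19 and 1.92 FPKM in diestrus in BAT and 0 to 0.11 FPKM with a median of 0.05 in WAT (log2 fold change 1.70, SE 0.14, adjusted p = 1.46e-06), and Tbx5, a factor of the forelimb and heart fields, had 2.22 to 3.39 FPKM in BAT and 0.06 to 0.66 FPKM in WAT (log2 fold change 1.29, SE 0.14, adjusted p = 1.39e-05). Tbx15, the third, had 1.60 and 2.32 FPKM in estrus and 1.05, 1.82 and 5.42 FPKM in diestrus in BAT and 0 to 0.14 FPKM with a median of 0.09 in WAT (log2 fold change 1.55, SE 0.24, adjusted p = 2.11e-04), with its highest value in BAT diestrus replicate 3, and it had 71.9 to 96.2 FPKM in skeletal muscle. Toward WAT, Tcf21, a visceral mesenchyme factor, had 0.07 and 0 FPKM in estrus and 0.09, 0 and 0 FPKM in diestrus in BAT and 3.09 to 11.1 FPKM with a median of 3.89 in WAT (log2 fold change -2.41, SE 0.24, adjusted p = 5.48e-06), Gata6 had 0.63 to 1.28 FPKM in BAT and 8.78 to 13.2 FPKM in WAT (log2 fold change -2.60, SE 0.14, adjusted p = 6.25e-08), and Wt1, expressed in mesothelium and visceral fat precursors, had 0 to 0.07 FPKM in BAT and 0.99 to 17.6 FPKM in WAT (log2 fold change -2.12, SE 0.39, adjusted p = 6.67e-04). Of these factors, Zic1, Tbx5 and Tbx15 passed the filter on low values only through BAT, and Tcf21 and Wt1 only through WAT. Their calls are therefore no evidence of their own. The mesothelial markers Upk3b and Msln were near 0 in BAT, at 0 to 0.05 FPKM, and reached 21.0 and 6.08 FPKM in WAT, and passed the filter on low values only through WAT. The part of mesothelium in the difference of Wt1 was not tested.

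Collagen, progenitor and macrophage genes were called mainly higher in WAT. Of 20 collagen genes, 14 were called higher in WAT and 2 higher in BAT, with a median of -1.35. Col15a1, of basement membranes, had 10.6 and 13.6 FPKM in estrus and 12.8, 21.2 and 10.6 FPKM in diestrus in BAT and 68.2 to 154 FPKM with a median of 100.2 in WAT (log2 fold change -2.89, SE 0.23, adjusted p = 9.97e-07), and Col27a1 went the other way at 9.87 to 15.8 FPKM in BAT and 0.81 to 1.68 FPKM in WAT (log2 fold change 2.60, SE 0.14, adjusted p = 5.29e-08). Of 15 markers of adipose progenitors and fibroblasts 11 were called higher in WAT, led by Col15a1, Dpt (-2.26) and Clec3b (-2.23), and of 15 macrophage markers 14, including Ccr2 (-1.94), Mrc1 (-1.81) and Csf1r (-1.78). Ccr2 averaged 0.84 FPKM in BAT and passed the filter on low values only through WAT. Its call is therefore no evidence of its own. In bulk tissue, more cells of a type and more RNA per cell cannot be told apart.

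WAT estrus replicate 1 had the highest summed level of each of these lists. Its sums were 2123 FPKM for collagens, 2546 for progenitors and fibroblasts, 1012 for macrophages and 2887 for smooth muscle, against at most 914, 1280, 518 and 391 FPKM in the other WAT libraries. Of its 53 genes that stood apart, 13 (24.5%) were highest in the womb and 12 (22.6%) in the aorta among the other tissues, against 8.81% and 6.32% of all genes tested. They were led by the contractile genes Tagln, with 1185 FPKM, and Acta2, with 685 FPKM. Without that library, 10 of 20 collagens, 11 of 15 progenitor markers and 10 of 15 macrophage markers were called higher in WAT, against 10.8% of all genes, and 2, 0 and 1 were called higher in BAT, against 7.27%.

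The calls of vessel and blood markers are to be read against all genes, of which 12.2% were called higher in WAT and 7.19% higher in BAT. Of 15 endothelial markers 2 were called higher in WAT and 0 higher in BAT, with a median of 0.05, and Cdh5, the cadherin of endothelial junctions, had 65.0 to 90.7 FPKM in BAT and 57.5 to 80.5 FPKM in WAT (log2 fold change 0.15, adjusted p = 0.179). Of 8 T cell markers 2 were called higher in WAT, although WAT lay above BAT without overlap for 7 of them (31.2% of all genes), with sums of 6.96 to 10.5 FPKM in BAT and 15.0 to 27.2 FPKM in WAT. In the other lists 0 of 2 B cell, 0 of 6 erythroid and 0 of 3 mammary and skin epithelium markers were called. Of 5 tested markers of the female reproductive tract, 1, Emx2, was called higher in WAT. It had 10.2 FPKM in WAT estrus replicate 1 and 0.98 to 2.31 FPKM in the other WAT libraries, and without that library it was too low to test and 0 of 4 were called. Of 11 smooth muscle markers 3 were called higher in WAT, and of 8 nerve markers 2, with 1 higher in BAT.

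Within each phase the counts were of the same order. In estrus alone 822 genes were called higher in BAT and 1785 higher in WAT, and in diestrus alone 844 and 1198. A limma test of whether the difference itself changed with phase called 41 genes (0.347%), 37 of them (0.313%) with BAT minus WAT lower in estrus and 4 (0.0338%) higher. The count was 82 without WAT estrus replicate 1, 210 without WAT estrus replicate 2, 6 without BAT estrus replicate 2 and 0 without any single one of the other libraries. None of the genes named above was among the 41.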

How the data were processed

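RNA of 15 tissues of female C57BL/6 mice (C57BL/6J in the methods) in estrus or diestrus had been sequenced, and the BAT and WAT libraries were analysed here. The authors filtered reads with SOAPnuke, aligned them with Bowtie2 2.2.5 and estimated levels with RSEM 1.2.8 on GRCm38.p5, per the labels and the paper's methods, and deposited 1 FPKM value per gene and library. FPKM is scaled within a library, so abundant genes lower the values of the others. RSEM divides ambiguous reads among similar genes. No read counts were used, and precision is limited by the number of libraries; the read numbers given are approximations from the smallest steps of values of genes of 300 to 1100 bases.

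log2(FPKM + 1) was fitted with limma 3.58.1 (trend, R 4.3.3) on tissue and phase for genes averaging 1 FPKM or more in the 11 libraries, with Benjamini-Hochberg adjustment over all 11830 genes. Of 20414 genes, 149 have no symbol and are not named. A second fit tested tissue by phase. Single genes were also tested by an exact permutation test (scipy 1.17.1). The scripts were tested on simulated data. Per the methods, the replicates of a phase are separate mice. Promoter windows and coordinates come from RefSeq on GRCm38.p6.

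The comparison, gene lists and tests were chosen with earlier results of these data known. Named genes are fixed reference genes and isoform pairs, the 15 called genes with the largest non-overlapping differences in each direction, and from each list the called members with the largest differences and its 3 most abundant members. Other list members were named for their role after their values were seen. Alternatives covered pseudocount, filter, scale, phase, libraries left out, replicate block, a fit of all tissues and call limits. Same-numbered BAT and WAT libraries did not deviate together (Pearson's r -0.17 to 0.10 over 5 pairs), so numbers were not taken as pairs. One list member is not reported here.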

Additional observations from a re-analysis of the deposited data

Results flagged for a closer look

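Of 156 single-gene levels and list sums examined by Dixon's test within BAT (n = 5) or WAT (n = 6), 29 had a library far from the others of its group. Chance gives this for about 1 in 20 groups, and the values are not independent, since several come from the same libraries.

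WAT estrus replicate 1 had the highest WAT levels of Cpt1a (22.1 FPKM), Esr1 (26.6 FPKM), Pgr (1.70 FPKM) and Lhx8 (0.10 FPKM) and the lowest of Cox8a (841 FPKM). Its summed levels were the highest of WAT for collagens (2123 FPKM), macrophages (1012 FPKM), smooth muscle and pericytes (2887 FPKM) and adipose progenitors and fibroblasts (2546 FPKM), and the lowest for fatty acid oxidation (6245 FPKM) and branched chain amino acid catabolism (1229 FPKM). The part of other tissue in this library was not tested.

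BAT diestrus replicate 3 had the highest BAT levels of the muscle genes Cox6a2 (253 FPKM), Ckmt2 (86.2 FPKM), Mb (510.2 FPKM), Myl2 (452 FPKM) and Pvalb (639.8 FPKM), of Fabp3 (918 FPKM), and of the sums of skeletal muscle (9721 FPKM) and smooth muscle markers (465 FPKM). Without that library, 22 thermogenic and 75 oxidative phosphorylation genes were called higher in BAT, the same numbers as with it.

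Among the other BAT libraries, Ppargc1a was high in estrus replicate 1 (70.7 FPKM) and Gm20594 low there (7970.0 FPKM). Serpina3n (6.17 FPKM) and Chrdl1 (1.63 FPKM) were high in diestrus replicate 2, Hoxc10 was above 0 in estrus replicate 2 alone (0.05 FPKM), and the summed mammary and skin epithelium markers were highest in diestrus replicate 1 (17.8 FPKM). Among the other WAT libraries, Ucp1 (32.8 FPKM) and Dio2 (4.45 FPKM) were high in estrus replicate 2, Prdm16 (1.61 FPKM) in diestrus replicate 1 and the summed erythroid markers (14387 FPKM) in estrus replicate 3.

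The difference between BAT and WAT itself differed between the phases for 41 genes by the limma interaction test, with 2415 genes at an unadjusted p under 0.05. Ribosomal protein genes, a list chosen after their values were seen, made up 16 of the 41. Of 79 tested, 77 had BAT minus WAT lower in estrus, with a median difference between the phases of -1.02 on the log2 scale against -0.10 for all genes. Rps21 had means of 227 FPKM in BAT and 449.7 FPKM in WAT in estrus and of 379.8 FPKM in BAT and 260.0 FPKM in WAT in diestrus (difference -1.52, adjusted p = 0.041 by limma).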

How the results depend on the processing

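Of 46 single genes followed under the alternatives, 1190 of 1212 values kept their direction and call, 17 lost the call, 5 gained it and 0 reversed. Calls were lost for Cpt1a, Esr1, Prdm16, Zic1, Nnat, Ckmt2, Cox6a2, Myl2 and Pvalb. Counts for lists moved past 1.5 times in 106 of 1508 cases. From 2290 genes called, the total moved to 1200 with a pseudocount of 5 (604 higher in WAT), 545 at a log2 fold change limit of 2 (272 higher in BAT and 273 in WAT) and 7581 without such a limit (2400 and 5181). The count higher in WAT was 943 with a mean of 5 FPKM or more, 2584 with libraries rescaled to the same sum and, in an alternative chosen after seeing the data, 909 with BAT diestrus replicate 2 as the BAT library. Without any single library the total was 2104 to 2390, with 806 to 878 higher in BAT and 1255 to 1522 higher in WAT.

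The 41 genes whose difference changed with phase were 24 with a pseudocount of 5, 0 without a filter, 10 on equal medians, 12 with BAT estrus replicate 3 kept and 0 to 210 without single libraries. With the replicate block, for numbers that did not pair the libraries, 868 genes were called higher in BAT and 1434 higher in WAT, and 0 for phase; 1 of 5 libraries correlated best with its own number.

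The approximate read number behind the values is higher in WAT, which limits statements on genes near 0 in BAT.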

Other observations

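Ucp1 was second highest in the aorta, with a mean of 1809 FPKM (SD 1067, n = 6, range 205 to 2896 FPKM), followed by the vein, with 395 FPKM (SD 221, n = 6, range 111 to 755 FPKM), against 4600 FPKM in BAT (SD 764, n = 5). WAT followed with 8.97 FPKM (SD 12.3, n = 6), and no other tissue had a mean above 2.60 FPKM.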
